A study of Mus musculus with 2 samples.

Results

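Beta cells that carried transcripts of Cd79a were examined in pancreatic islets of C57BL/6J mice aged 13 weeks. Single islet cells had been profiled with droplet-based 3' RNA sequencing in 1 library of islets from animals given high-fat diet (HFD) and 1 library labelled CD, an abbreviation that is not spelled out in the labels. The number of mice behind a library was not given in the sources used here. A β cell was a barcode with at least 1500 unique molecular identifiers (UMIs, each a counted transcript molecule), at least 500 detected genes, at most 15% of UMIs from mitochondrially encoded genes, at least 30% from Ins1 and Ins2, under 2% from Gcg, under 1% from Sst and under 5% from Ppy, with fewer than 2 of 6 proliferation genes detected. A β cell with 3 or more Cd79a UMIs is called a Cd79a cell here. There were 347 Cd79a cells among 6651 β cells of the HFD library and 1816 among 5503 β cells of the CD library, or 2163 of 12154 β cells and of 21729 kept barcodes in all. The reference within each library was the β cells with 0 Cd79a UMIs, 5417 in HFD and 2596 in CD, and the other 887 HFD and 1091 CD β cells had 1 or 2.

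Cd79a encodes Igα, the chain that pairs with Igβ (Cd79b) to form the signalling part of the B cell antigen receptor, and it is a standard marker of B lymphocytes. In B cells its gene is switched on by transcription factors such as EBF1, Pax5 and Ets proteins. β cells make insulin from Ins1 and Ins2, and β cells of 1 islet are known to differ from each other in maturity, hormone output and surface proteins.

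The cells were chosen by their Cd79a UMIs in both libraries, so every difference between Cd79a cells and β cells without Cd79a is a description of these libraries and was not tested. With 1 library per diet no difference between diets has a replicate check. Each interval given is an exact 95% interval that covers counting error only. The libraries held 271527648 UMIs (HFD) and 265836346 UMIs (CD). Of the kept cells, 26 barcodes occurred in both libraries, and 0 of these were Cd79a cells in both.

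Cd79a lies on chromosome 7 from 24897381 to 24902197 on the plus strand (GRCm38, GENCODE M21), and no other annotated gene overlaps it. Its promoter is shown because the transcript is the one that defines these cells. The window of 250 bases before to 50 after the RefSeq start (GRCm38.p6, chr7:24897247-24897546, plus strand) reads 5' to 3', with the match to the Ets-type motif AGGAAGTG in capitals:

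Cd79a: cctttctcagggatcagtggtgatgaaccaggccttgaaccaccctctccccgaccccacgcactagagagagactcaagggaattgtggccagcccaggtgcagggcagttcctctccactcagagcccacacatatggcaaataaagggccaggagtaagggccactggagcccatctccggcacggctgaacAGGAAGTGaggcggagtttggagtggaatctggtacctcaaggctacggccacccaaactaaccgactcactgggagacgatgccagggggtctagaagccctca

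The match begins 55 bases before the RefSeq start. The GENCODE start of the gene, 24897381, lies further upstream, so the match is inside the gene as annotated there. AGGAAGTG, on either strand, occurred in 4.07% of 32851 mouse promoter windows of this length. Of the 25 genes searched, Cd79a and the 24 with the highest and lowest ratios described further on, 21 had a window, with 29 windows between them. It occurred in 4 of these 29 windows, those of Cd79a, Nfix, Cntn1 and Spp1. The 3 further matches, in 30-base stretches with the motif in capitals, are given in the sense of the gene so that the sites can be compared:

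Nfix: actcttcctctCACTTCCTgtcctctcatt

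Cntn1: gcccaggctacAGGAAGTGcattgaagact

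Spp1: aaaaccagaggAGGAAGTGtaggagcaggt

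These stretches lie at chr8:84775781-84775810 on the minus strand for Nfix, chr15:92161192-92161221 on the plus strand for Cntn1 and chr5:104434988-104435017 on the plus strand for Spp1. The Nfix match is on the strand opposite to the gene. Also searched on either strand were an EBF motif (TCCC and GGGA set 2 bases apart, in 0.904% of all windows), TTACGTAA (0.119%) and TTATGTAA (0.938%) of PAR bZIP factors such as Hlf, and a nuclear factor I motif (TTGGC and GCCAA set 5 bases apart, 0.0365%). They occurred in 0 of the 29 windows.

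Cd79a was present at a graded level among β cells, and in far more of them in CD. Cd79a cells made up 5.22% of HFD β cells (4.70 to 5.78) and 33.0% of CD β cells (31.8 to 34.3). With 1 UMI as the limit, 18.6% of HFD β cells (17.6 to 19.5) and 52.8% of CD β cells (51.5 to 54.2) carried the transcript. The highest cell had 15 UMIs in HFD and 60 in CD, and the median Cd79a cell had 4 and 6.

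The threshold of 3 UMIs cut through a continuous distribution. In HFD 9.88% of β cells had 1 UMI, 3.46% had 2 and 1.98% had 3. In CD 11.5% had 1, 8.34% had 2 and 5.91% had 3. Of the Cd79a cells, 274 of 347 in HFD and 803 of 1816 in CD had 3 to 5 UMIs, so many lie next to the limit. Cells with 21 or more UMIs numbered 0 of 6651 in HFD, which allows a share of up to 0.0554%, and 40 of 5503 in CD.

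**Figure D1:**
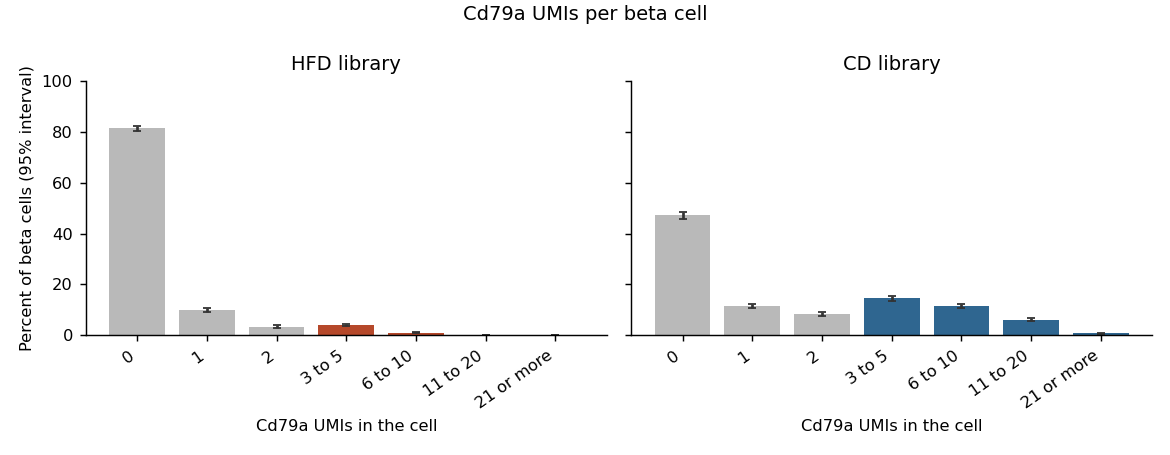
Percent of β cells (y axis, from 0) by the number of Cd79a UMIs in the cell (x axis), with the HFD library on the left and the CD library on the right. Coloured bars are Cd79a cells (3 or more UMIs), grey bars the other β cells, and error lines exact 95% intervals of counting. Cells with 0 UMIs make up 81.4% in HFD and 47.2% in CD.

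Depth did not level the libraries. When every β cell was thinned to 10000 UMIs (516 shallower HFD cells and 331 CD cells left out), 1.89% of HFD β cells (1.56 to 2.26) and 12.8% of CD β cells (11.9 to 13.8) still had 3 or more, and 11.6% and 38.5% had at least 1. The share followed depth in CD but not in HFD. It was 6.37% below 20000 UMIs, 4.15% from 20000 to 40000 and 6.48% above that in HFD, against 23.8%, 28.0% and 51.2% in CD. Among cycling β cells, which had 2 or more of the proliferation genes, 6 of 205 in HFD (1.08 to 6.26%) and 81 of 253 in CD (26.3 to 38.1%) had 3 or more Cd79a UMIs.

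Cd79a was unevenly spread over β cells beyond what counting gives. In cells thinned to 10000 UMIs the variance of its counts over their mean was 2.13 in HFD and 3.13 in CD, where a gene at the same level in every cell would give 1. Among genes with a mean within 2-fold of that of Cd79a, the median of this ratio was 1.02 in HFD and 1.04 in CD. Only 9 of 3697 such genes in HFD were above Cd79a. In CD only 1 of 891 was, the stress-response regulator Nupr1.

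Other islet cells carried little Cd79a. Summed over cells, its level as counts scaled by the total (CPM) was 15.4 in HFD β cells (14.8 to 16.0) and 86.9 in CD β cells (85.6 to 88.3). In glucagon-rich α cells it was 1.57 in HFD (1.03 to 2.31) and 4.73 in CD (3.61 to 6.09). In somatostatin-rich δ cells it was 6.03 in HFD (3.57 to 9.53) and 20.5 in CD (16.1 to 25.7). The order β, δ, α thus held in both libraries.

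Endothelial cells stood at 3.86 CPM in HFD and 7.20 CPM in CD, and macrophages at 2.13 and 6.22 CPM. The barcodes with markers of B cells, 5 in HFD and 2 in CD, had 534 CPM (266 to 955) and 598 CPM (163 to 1530), above the β cell sums. Free RNA, taken from barcodes with 10 to 100 UMIs, held Cd79a at 18.0 CPM in HFD and 58.9 CPM in CD. In HFD this was above the β cell sum of 15.4 CPM, and in CD below that of 86.9 CPM. The part of free RNA in the Cd79a counts was not tested. With every cell thinned to 5000 UMIs, 6.92% of HFD and 27.0% of CD β cells had a Cd79a UMI. The shares were 0.497% and 2.10% for α cells and 2.35% and 7.59% for δ cells. Unthinned, the α shares were 1.17% and 4.52% at median depths of 7713 and 9400 UMIs, where β cells had 23526 and 26728. An α cell with 3 or more Cd79a UMIs occurred 1 time among 2054 in HFD and 0 times among 1260 in CD, which allows up to 0.292% there. Among δ cells 0 of 593 in HFD, which allows up to 0.620%, and 4 of 520 in CD had 3 or more.

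**Figure D2:**
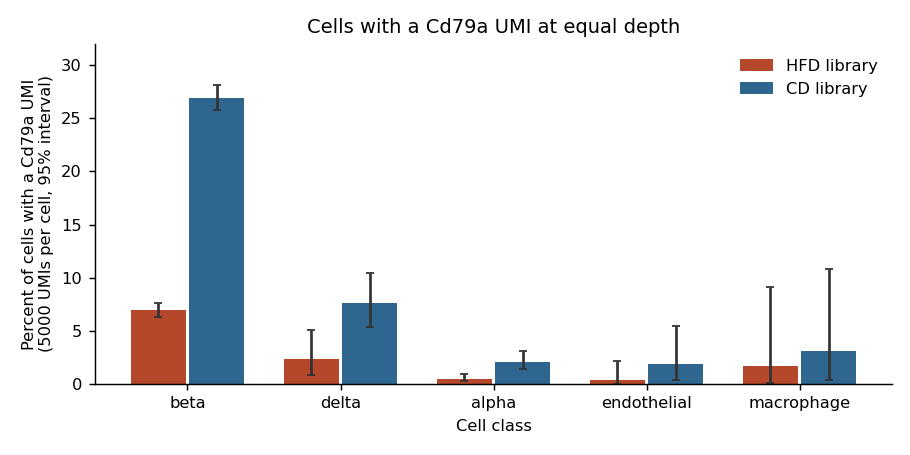
Percent of cells with at least 1 Cd79a UMI after every cell was thinned to 5000 UMIs (y axis, from 0) in 5 classes of islet cell (x axis), HFD left and CD right in each pair, with exact 95% intervals of counting. β cells reach 6.92% and 27.0%, and α cells 0.497% and 2.10%.

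Cd79a cells had few or no other transcripts that define B cells. Of the 11 genes that define B cells in the list used, Blk and Vpreb3 had 0 UMIs in Cd79a cells of both libraries, and Cd79b, the partner chain of Cd79a, had 1 UMI in each. The summed level of the 11 genes was 1.48 CPM in Cd79a cells and 0.740 CPM in cells without Cd79a in HFD, and 0.804 and 0.572 CPM in CD. In the B cell barcodes the same sum was 1698 CPM in HFD and 1494 CPM in CD. Much of the sum in β cells came from 1 of the 11 genes, Fcmr. It held 7 of 14 UMIs in Cd79a cells and 6 of 7 in the others in HFD, and 28 of 38 and 23 of 27 in CD. In HFD 4 of the 11 genes were at 0 in Cd79a cells against 9 in the others, and in CD 6 against 7.

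Over the whole B cell list of 22 genes, 7 were at 0 in Cd79a cells of either library, and the summed level was 40.2 CPM in Cd79a cells against 40.0 CPM in cells without Cd79a in HFD. In CD it was 23.3 against 9.03 CPM. There Cd74, the invariant chain of class II antigen presentation, stood at 11.2 CPM in Cd79a cells and 4.62 CPM in cells without Cd79a, a log2 ratio of 1.28 (1.05 to 1.52), and H2-Ab1, a class II β chain, had 1.71 (1.31 to 2.12). These UMIs came from few cells, as Cd74 was seen in 62 of 1474 Cd79a cells and in 77 of 1474 others. In HFD the log2 ratios were -0.04 (-0.34 to 0.26) and -0.14 (-0.58 to 0.29). Of the downstream genes of the receptor, only 3 of 18 were measured well enough to compare, and 0 passed the fold limit. The kinase Prkcb had 0.17 in HFD and 0.02 in CD.

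Each Cd79a cell was paired with a β cell of its own library that had 0 Cd79a UMIs and nearly the same total. This matched all 347 HFD cells and 1474 of 1816 CD cells, while 342 CD cells found no partner left within 5%, and the median total of the CD Cd79a cells was 31670.5 UMIs before matching. Matched Cd79a cells and their partners had median totals of 22216 and 22214 UMIs in HFD and 26742 and 26729.5 in CD. Detected genes were more numerous in Cd79a cells, with medians of 2893 against 2832 in HFD and 3223 against 3117.5 in CD. The median share of UMIs on insulin genes was smaller, 61.9% against 63.6% in HFD and 60.9% against 63.2% in CD, and the mitochondrial share was 3.70% against 3.72% and 2.54% against 2.70%.

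A gene was counted when its ratio was at least 1.5-fold, the same way in both libraries, with at least 100 UMIs over both groups in each. Of 7171 genes measured, 24 (0.335%) were higher and 8 (0.112%) were lower in Cd79a cells. In HFD alone 223 genes (3.11%) were past 1.5-fold higher and 30 (0.418%) lower, and in CD alone 47 (0.655%) and 12 (0.167%), from a larger number of cells. The median log2 ratio of all genes was 0.11 in HFD and 0.10 in CD, an offset against which each ratio should be read. It lay between -0.03 and 0.03 when the sums were scaled without the insulin genes, with TMM or with the median of ratios.

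The 12 highest genes by the interval bound nearest to 1 were the membrane protein gene Fam159b, the ectopeptidase Anpep, the transcription factors Nfix and Hlf, the phosphatase Dusp26, the deubiquitinase Uchl1, the retinol carrier Rbp4, the tetraspanin Cd81, the Wnt antagonist Sfrp5, the sodium channel Scn3a and the snoRNA host genes Snhg18 and Snhg11. Free RNA held 7 of the 12 in HFD and 8 of the 12 in CD at a level above both groups of cells, and its part in their ratios was not tested. The 12 lowest were led by the calcium-binding protein S100z, the cytochrome oxidase subunit Cox6a2, the adhesion molecule Cntn1 and the creatine-synthesis enzyme Gatm.

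**Figure D3:**
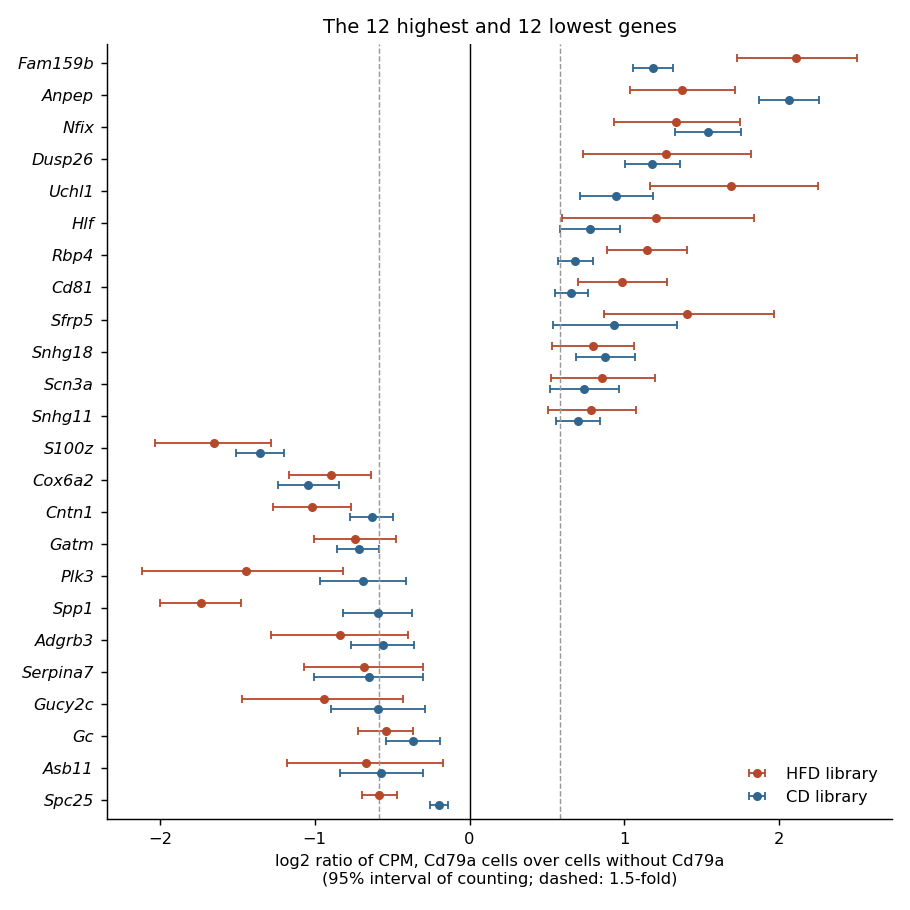
log2 ratio of CPM in Cd79a cells over matched β cells without Cd79a (x axis) for the 12 highest and 12 lowest genes (y axis), with HFD drawn above CD for each gene and exact 95% intervals of counting. Dashed lines mark 1.5-fold. Anpep lies at 1.37 in HFD and 2.06 in CD, and S100z at -1.65 and -1.35.

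Anpep encodes aminopeptidase N (CD13), a zinc ectopeptidase of the plasma membrane (chromosome 7, 79821803 to 79861059, minus strand). It stood at 27.9 CPM in Cd79a cells and 10.8 CPM in cells without Cd79a in HFD, and at 24.4 and 5.83 CPM in CD. The log2 ratios were 1.37 (1.04 to 1.72) and 2.06 (1.87 to 2.26). An Anpep UMI was found in 170 of 347 Cd79a cells against 71 of 347 others in HFD, and in 698 against 218 of 1474 in CD.

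Fam159b, named Shisal2b in current annotation, encodes a shisa-like membrane protein (chromosome 13, 104845283 to 104863893, minus strand). It stood at 32.4 CPM in Cd79a cells against 7.51 CPM in cells without Cd79a in HFD and at 32.9 against 14.5 CPM in CD, log2 ratios of 2.11 (1.73 to 2.50) and 1.18 (1.05 to 1.32). Its level in Cd79a cells was thus nearly equal between libraries, while the cells without Cd79a differed. Scn3a, the α subunit of a voltage-gated sodium channel of β cells, had log2 ratios of 0.86 in HFD and 0.74 in CD.

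Cd81, a tetraspanin that has been described as a mark of less mature mouse β cells, had 32.3 CPM in Cd79a cells and 16.3 CPM in the others in HFD, and 39.3 and 24.9 CPM in CD. Its log2 ratios of 0.99 (0.70 to 1.28) and 0.66 (0.55 to 0.77) rest partly on the offset, since Cd81 was no longer past 1.5-fold in both libraries with TMM scaling. Free RNA held Cd81 at 206 CPM in HFD and 236 CPM in CD, above its level in either group of β cells, and its part in this ratio was not tested.

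The transcription factors among the 12 were Nfix and Hlf. Nfix, of the nuclear factor I family (chromosome 8, 84699876 to 84800344, minus strand), had 19.5 CPM in Cd79a cells and 7.72 CPM in the others in HFD, and 14.8 and 5.11 CPM in CD. Its log2 ratios were 1.33 (0.94 to 1.75) and 1.54 (1.33 to 1.76), and it was seen in 39.2% against 18.2% of cells in HFD and 36.1% against 14.3% in CD. Hlf, a PAR bZIP factor that follows the circadian clock in many tissues, had log2 ratios of 1.20 (0.60 to 1.84) and 0.78 (0.58 to 0.97).

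Dusp26, a dual-specificity phosphatase (chromosome 8, 31089471 to 31097047, plus strand), had 10.7 CPM in Cd79a cells against 4.44 CPM in HFD and 18.2 against 8.05 CPM in CD, log2 ratios of 1.27 (0.73 to 1.82) and 1.18 (1.00 to 1.36). Uchl1, a ubiquitin hydrolase abundant in neurons and endocrine cells, had 13.3 against 4.12 CPM and 9.36 against 4.85 CPM, log2 ratios of 1.69 (1.16 to 2.25) and 0.95 (0.71 to 1.18). All 4 of these genes were low in absolute terms, with a UMI in at most 39.2% of Cd79a cells.

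Sfrp5 and Rbp4 encode secreted proteins. Sfrp5, a soluble Wnt antagonist, had log2 ratios of 1.41 (0.87 to 1.97) in HFD and 0.94 (0.54 to 1.34) in CD. Snhg18 had 0.80 and 0.88, and Snhg11 0.79 and 0.70. Rbp4, which carries retinol in plasma and is also made by δ cells, had 42.1 CPM in Cd79a cells against 19.0 CPM in HFD and 34.7 against 21.6 CPM in CD, log2 ratios of 1.14 and 0.68.

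Rbp4 was the least evenly spread of the 12. In HFD the 5 highest of 347 cells held 34.9% of its UMIs among Cd79a cells and 56.1% among the others. Free RNA held it at 158 CPM in HFD and 169 CPM in CD. With stricter limits on other islet hormones its log2 ratios were 0.71 in HFD and 0.66 in CD, with 5 or more Cd79a UMIs 0.18 and 1.08, and without barcodes marked as doublets 1.26 and 1.5. Sst had 457 CPM in HFD Cd79a cells against 206 CPM, and the part of δ cell RNA in the Rbp4 ratios was not tested.

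The other 12 counted genes were Ramp1, a receptor partner for calcitonin family peptides, the secreted peroxidase Gpx3, the lipase Lpl, the histone gene Hist3h2ba, the cytokine receptor Il17re, the small heat shock protein Hspb1, the transporters Slco1a6 and Slc29a4, the cadherin Celsr2, the homeodomain factor Meis1, the G protein subunit Gnai1 and the Nodal antagonist Lefty1. By the interval bound nearest to 1 they stood below the 12 ranked genes. Ramp1 had 31.3 CPM in Cd79a cells against 18.7 CPM in HFD and 23.1 against 12.8 CPM in CD, log2 ratios of 0.74 and 0.85, and Lefty1 had 0.63 and 0.60.

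Of the 24 genes, Fam159b, Anpep and Scn3a stayed past 1.5-fold in both libraries under all 18 alternative settings that kept that limit. Nfix, Dusp26, Uchl1, Sfrp5 and Ramp1 did so under 17, all but the one that required 5 or more Cd79a UMIs, where only 118 HFD cells were left and fewer genes reached 100 UMIs. The settings with a minimum of 30 UMIs or none leave the ratios as they are. No counted gene, higher or lower, could be lost there.

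S100z, an S100 calcium-binding protein (chromosome 13, 95477268 to 95478721, minus strand), had 8.46 CPM in Cd79a cells against 26.5 CPM in cells without Cd79a in HFD and 10.2 against 26.1 CPM in CD. The log2 ratios were -1.65 (-2.03 to -1.28) and -1.35 (-1.51 to -1.20). It was seen in 15.3% of Cd79a cells against 38.3% of the others in HFD and in 19.8% against 40.6% in CD.

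Cox6a2, the muscle-type isoform of a cytochrome c oxidase subunit (chromosome 7, 128205435 to 128206387, minus strand), had 19.2 CPM in Cd79a cells against 35.8 CPM in HFD and 6.73 against 13.9 CPM in CD, log2 ratios of -0.90 (-1.17 to -0.63) and -1.04 (-1.24 to -0.85). Cntn1, a contactin of the immunoglobulin superfamily (chromosome 15, 92051165 to 92341967, plus strand), had 21.05 against 42.5 CPM and 14.9 against 23.1 CPM, log2 ratios of -1.01 (-1.27 to -0.77) and -0.63 (-0.77 to -0.49). Gatm, the first enzyme of creatine synthesis (chromosome 2, 122594467 to 122611303, minus strand), had -0.74 (-1.01 to -0.47) and -0.72 (-0.85 to -0.58). These 4 genes stayed past 1.5-fold lower in both libraries under all 18 settings.

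The other 4 counted genes were the stress-responsive kinase Plk3 (-1.45 in HFD, -0.69 in CD), the secreted phosphoprotein osteopontin, Spp1 (-1.73 and -0.59), the thyroxine-binding globulin Serpina7 (-0.68 and -0.65) and the guanylin receptor Gucy2c (-0.94 and -0.59). In CD the intervals of all 4 reached ratios nearer to 1 than the limit. Ranked among the lowest but not past the limit in both libraries were the adhesion receptor Adgrb3 (-0.83 and -0.56), the vitamin D-binding protein Gc (-0.54 and -0.36), the ubiquitin ligase adaptor Asb11 (-0.67 and -0.57) and the kinetochore gene Spc25 (-0.58 and -0.20).

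Spp1 showed the largest gap between libraries among the lowest genes. It had 16.5 CPM in Cd79a cells against 54.9 CPM in HFD and 5.91 against 8.90 CPM in CD. In HFD it was seen in 17.0% against 29.4% of cells, and in CD in 13.4% against 14.4%, so that the CD ratio came from UMIs per positive cell more than from the number of cells.

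Cells with 1 or 2 Cd79a UMIs were set beside both groups. The 24 ranked genes were chosen because the outer groups differ, so a middle place supports nothing. Cells with 1 or 2 Cd79a UMIs, matched in depth as 346 trios in HFD and 1020 in CD, lay between the other groups for 11 of the 12 highest genes in either library, with Cd81 as the exception in both. They lay between for all 12 lowest genes in HFD and for 11 of 12 in CD, where Serpina7 was the exception. Some were near an outer group, such as Asb11 in HFD with 9.31 CPM at 1 to 2 and 9.42 CPM at 0 Cd79a UMIs. Anpep stood at 10.7, 22.5 and 27.8 CPM with 0, 1 to 2 and 3 or more Cd79a UMIs in HFD, and at 5.69, 10.9 and 23.4 CPM in CD. S100z stood at 26.6, 13.5 and 8.47 CPM in HFD and at 26.0, 16.5 and 10.6 CPM in CD. At the limit itself, cells with 3 and cells with 2 Cd79a UMIs had 21.9 and 25.2 CPM of Anpep in HFD and 13.4 and 11.8 CPM in CD.

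**Figure D4:**
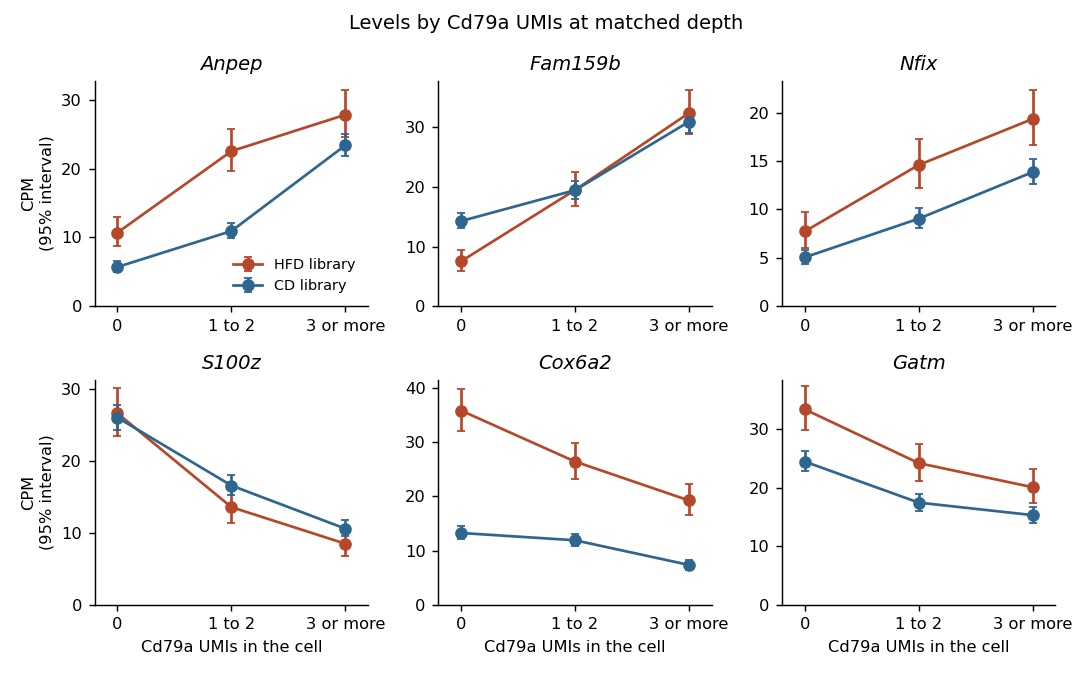
CPM (y axis, from 0, on a scale of its own for each gene) of 3 higher and 3 lower genes in β cells with 0, 1 to 2 and 3 or more Cd79a UMIs at matched depth (x axis), HFD and CD as separate lines, with exact 95% Poisson intervals of counting. All 6 genes move in 1 direction across the groups in both libraries.

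In the CD library 741 cells with 6 or more Cd79a UMIs were matched to cells with 3 to 5. Anpep had 27.2 CPM in the cells with more Cd79a and 15.8 CPM in those with fewer, a log2 ratio of 0.79 (0.61 to 0.96). The ratio was 0.48 (0.34 to 0.62) for Fam159b, 0.61 (0.34 to 0.88) for Scn3a, -0.59 (-0.82 to -0.37) for S100z, -0.70 for Cox6a2 and -0.57 (-0.77 to -0.37) for Gatm. The intervals of Rbp4, Hlf, Sfrp5, Plk3, Adgrb3, Serpina7, Gucy2c and Gc held 0. HFD gave only 73 such pairs. Dusp26 (1.19, 0.25 to 2.21) and Rbp4 (-1.56, -2.13 to -1.02) lay off 0 there, as did Cd81 (0.69, 0.16 to 1.23), Snhg11 (0.85, 0.31 to 1.41), Plk3 (-4.46 to -0.11) and Spc25 (-0.29, -0.55 to -0.03). The intervals of the other ranked genes, Anpep, Fam159b, S100z and Gatm among them, held 0.

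The 2 libraries shared part of their genes. Of the 47 genes past 1.5-fold higher in CD, 42 were on the same side in HFD, and 24 (51.1%) were also past the limit there. Of the 12 lower ones, 9 were on the same side and 8 (66.7%) past it. Taken from the HFD side, where sums were smaller, 192 of 223 higher genes were on the same side in CD and 24 (10.8%) past the limit, and 23 and 8 (26.7%) of 30 lower ones. For all 7171 genes, 65.0% were above a ratio of 1 in both libraries.

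Single cells were compared by scores, and the groups overlapped widely. With the 12 genes highest in CD alone as a score, 84.7% of HFD Cd79a cells lay above the median of their partners without Cd79a. With the 12 highest in HFD alone, 64.5% of CD Cd79a cells did. The CD score holds Cd74, H2-Aa, H2-Ab1, H2-Eb1 and Apoe and the HFD score Fabp4, Esm1, Sst and Gcg, genes typical of other cell types, and their part in these shares was not tested. Of the 12 highest genes of both libraries, a Cd79a cell had on average 4.15 detected against 2.18 in HFD and 3.94 against 2.12 in CD. The 10th to 90th percentiles were 2 to 7 genes in Cd79a cells and 0 to 4.4 in the others in HFD, and 1 to 7 against 0 to 4 in CD, so the groups overlap. Because these 12 were chosen on the same cells, these numbers of detected genes describe the spread only.

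No β cell identity gene was past the limit. Of 22 measured identity genes 0 passed the limit in either direction. Their median log2 ratio was 0.04 in HFD and 0.03 in CD, below the 0.11 and 0.10 of all genes. Ins1 and Ins2 are among these genes, and the β cell rule set a minimum for their share of UMIs in both groups. That minimum limited how far Ins1 and Ins2 could differ, so for them the count decides nothing. Ins2 had 444994 CPM in Cd79a cells against 460126 CPM in HFD and 447555 against 463113 CPM in CD, log2 ratios of -0.05 in both. Ins1 had -0.05 and -0.08. Iapp, the islet amyloid polypeptide co-released with insulin, had 0.12 and 0.13, and Abcc8, the sulfonylurea receptor, 0.22 and 0.13. Among transcription factors of the list, picked after their values were seen, Mafa had -0.35 in HFD and -0.11 in CD, Pdx1 0.00 and -0.09 and Nkx6-1 0.15 and 0.12. The HFD ratio of Iapp was -0.02 with TMM scaling, so its sign there rests on the offset.

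Of 12 measured genes used to separate kinds of β cell, 3 were past the limit higher, Cd81, Rbp4 and Gpx3, and 0 lower, where 0.335% and 0.112% of all genes were. All 3 lost that place with TMM scaling, where 13 genes were counted. Free RNA held Gpx3 at 214 CPM in HFD and 116 CPM in CD, above its level in either group of β cells, and its part was not tested. Pyy, a gut and islet peptide gene of the same list, had 891 CPM in Cd79a cells against 492 CPM in HFD but 566 against 534 CPM in CD, log2 ratios of 0.86 and 0.08. Of 5 measured immaturity and disallowed genes 0 were higher and Serpina7 was lower.

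Aldh1a3, a retinaldehyde dehydrogenase used as a mark of failing β cells, had too few UMIs for that count. It was seen in 24 of 347 Cd79a cells (6.92%, 4.48 to 10.1) against 242 of 5417 cells without Cd79a (4.47%, 3.93 to 5.05) in HFD, and in 7 of 1816 (0.385%) against 4 of 2596 (0.154%) in CD. These shares are unmatched for depth, and their intervals overlap in both libraries.

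Rnase4, a secreted ribonuclease of the angiogenin locus, had 239 CPM in Cd79a cells against 197 CPM in HFD and 300 against 226 CPM in CD, log2 ratios of 0.28 (0.19 to 0.37) and 0.40 (0.37 to 0.44), short of the limit. It overlaps Ang on the same strand, which had 0.16 and 0.45, so the division of reads between them is uncertain. Of 13 measured peptidases and ribonucleases, Anpep was the 1 gene past the limit, and the median was 0.16 in HFD and 0.15 in CD. Cpe, the carboxypeptidase that trims proinsulin, had 0.04 and 0.09.

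Lists of secretory cell functions were compared next, where 0.335% and 0.112% of all genes were higher and lower. Of 20 measured secretory granule genes 0 passed the limit, with medians of 0.10 in both libraries. Chga, the granule protein chromogranin A, had 0.33 in HFD and 0.19 in CD, and Scg2 -0.16 and -0.06. Of 24 unfolded protein response genes 0 passed (medians -0.03 and 0.04), among them the chaperone Hspa5 at 0.01 and 0.06. Of 13 glycolysis genes (0.03 and 0.02) and 12 genes of cAMP and incretin signalling (0.11 and 0.09) 0 passed.

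No listed respiratory chain gene was past the limit. The 36 nuclear genes of oxidative phosphorylation had medians of -0.01 in HFD and 0.06 in CD with 0 past the limit, a list that holds the common subunits and not Cox6a2, and 14 (38.9%) lay above 1 in both libraries, against 65.0% of all genes. Of the 13 mitochondrially encoded genes 12 lay below a ratio of 1 in both libraries, with medians of -0.10 and -0.09. mt-Nd4l had -0.21 and -0.26, and mt-Co1 alone lay above, at 0.03 and 0.07. Over all 7171 genes 498 were below 1 in both.

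Of 19 genes of cholesterol and fatty acid synthesis 0 passed the limit. Of these, 15 (78.9%) lay above 1 in both libraries, against 65.0% of all genes, and 0 below in both, with medians of 0.20 in HFD and 0.24 in CD. The desaturase Scd2 had 0.54 (0.26 to 0.84) and 0.82 (0.62 to 1.03). Of 17 immediate early and dissociation genes 0 passed, with medians of 0.42 and 0.13, and Egr1, an activity-induced transcription factor, had 112 CPM in Cd79a cells against 70.4 CPM in HFD and 82.5 against 65.9 CPM in CD. In the antioxidant and metal list Gpx3 alone of 15 genes passed, at 1.23 and 0.66, and the metallothionein Mt1 had 0.36 and 0.30.

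The remaining lists gave no count of genes beyond those named. Of 13 antigen presentation and interferon genes, 14 cold-inducible and chromatin genes and 8 cell cycle genes 0 passed, with medians of 0.18, 0.16 and 0.02 in HFD and 0.13, 0.13 and 0.05 in CD. Cycling β cells had been left out of both groups by the β cell rule, so the cell cycle count cannot show whether cycling differed. The cyclin Ccnd2 had -0.27 and -0.06. Of the ductal list, which holds Spp1, 1 of 4 measured genes was lower, and Epcam had 0.28 and 0.12.

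Markers of other cell types differed between the groups, in either direction. Gcg had 1049 CPM in Cd79a cells against 514 CPM in HFD, a log2 ratio of 1.03, and 430 against 451 CPM in CD, a log2 ratio of -0.07. Sst had 1.15 in HFD and 0.27 in CD. In HFD the 5 highest of 347 Cd79a cells held 45.6% of their Gcg UMIs, against 16.4% in the 5 highest of the others. The summed α list of 14 genes stood at 2519.8 CPM in Cd79a cells against 2035 CPM in HFD and 1383 against 1360.3 CPM in CD, with 2 genes at 0 in either library.

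The endothelial list of 8 genes summed to 61.0 CPM in Cd79a cells against 38.4 CPM in HFD and to 11.2 against 13.6 CPM in CD. The acinar list of 11 genes summed to 30.7 against 3.6 CPM in HFD and 30.1 against 32.2 CPM in CD. In HFD 1 cell held 59 of the 70 UMIs of Prss2 and 1 cell 62 of the 70 of Ctrb1, both digestive protease genes. The macrophage list of 10 genes summed to 54.7 against 50.02 CPM in HFD, a log2 ratio whose interval held 0 (-0.05 to 0.31), and to 39.0 against 28.4 CPM in CD. The mesenchymal list of 8 genes summed to 7.83 against 10.3 CPM in HFD and 2.22 against 2.97 CPM in CD, and the ductal list of 8 genes to 220.5 against 233 CPM and 286 against 263 CPM. T cell genes were nearly absent, with 0.423 CPM in HFD and 0.106 CPM in CD Cd79a cells and 6 and 8 of 10 genes at 0. Doublet scores marked 8.65% of Cd79a cells against 6.59% of all cells without Cd79a in HFD and 7.93% against 4.82% in CD. Among matched cells they marked 30 against 23 of 347 in HFD and 93 against 85 of 1474 in CD. Without the marked barcodes 18 of the 24 higher and 6 of the 8 lower genes were past the limit.

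The diets could be compared within Cd79a cells as well as within cells without Cd79a, with 337 and 2551 pairs of equal depth, 1 cell of each pair from HFD and 1 from CD. In Cd79a cells 297 of 7339 genes (4.05%) were at least 1.5-fold higher in HFD and 465 (6.34%) lower. In cells without Cd79a 211 (2.88%) were higher and 268 (3.65%) lower, from a larger number of cells. With fewer UMIs per gene, counting error alone carries more genes past a limit. The 2 kinds of cell can therefore not be compared by these counts. In both kinds of cell 132 (1.80%) were higher and 178 (2.43%) lower, and 2 genes were past the limit in opposite directions. The median log2 ratio was -0.09 and -0.08.

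Genes that are known to differ most between HFD and CD β cells of these libraries differed the same way in Cd79a cells. Since they were chosen on these libraries, this is no independent support. Gc had 46.9 CPM in HFD against 9.43 CPM in CD in Cd79a cells, a log2 ratio of 2.31 (1.98 to 2.66), and 2.25 (2.15 to 2.35) in cells without Cd79a. The metallothionein Mt1 had -2.38 (-2.42 to -2.35) in Cd79a cells and -2.67 (-2.69 to -2.66) in the others, and the cold-inducible Rbm3 -1.68 and -1.54. The contrast was smaller in Cd79a cells for Dapl1, 1.53 (1.35 to 1.71) against 2.37 (2.31 to 2.43), and for the sulfotransferase Sult1d1, -0.90 (-1.08 to -0.73) against -1.67 (-1.76 to -1.59).

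Within HFD, Cd79a cells held less of some genes that HFD β cells had more of, and 3 examples are given. Dapl1 had 106 CPM in Cd79a cells against 156 CPM, a log2 ratio of -0.55, Nupr1 115 against 188 CPM (-0.71) and Gc 46.8 against 68.2 CPM (-0.54). In CD the ratios were 0.14, -0.11 and -0.36, so for Dapl1 the sign differed. Sult1d1, which CD β cells had more of, stood at 46.1 CPM in HFD Cd79a cells against 19.8 CPM, a log2 ratio of 1.22 (0.97 to 1.48), and at 0.32 (0.26 to 0.39) in CD. Of the 10 genes named as higher in HFD β cells 0, and of the 8 named as lower 0, were past 1.5-fold in both libraries. The median of the 10 was -0.13 in HFD and 0.06 in CD. Among them Cd200 had 0.26 (0.09 to 0.43) and Prlr -0.01 (-0.11 to 0.08) in HFD.

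Some of the ranked genes were level between the diets in Cd79a cells and others were not. Cd79a itself had 165 CPM in HFD and 265 CPM in CD in these Cd79a cells, a log2 ratio of -0.69 (-0.78 to -0.59). The Cd79a cells compared here thus differed in Cd79a level, and its part in the ratios of other genes was not tested. Anpep was level between HFD and CD Cd79a cells, with 27.8 CPM in HFD and 27.7 CPM in CD, a log2 ratio of 0.01 (-0.25 to 0.26), and 0.40 (0.22 to 0.58) in cells without Cd79a. Fam159b had -0.22 (-0.45 to 0.00) in Cd79a cells and -0.86 (-1.01 to -0.71) in the others. The intervals in Cd79a cells also held 0 for Nfix (-0.10 to 0.53), Uchl1 (-0.15 to 0.64) and S100z (-0.79 to 0.10). Dusp26 was lower in HFD in both kinds of cell (-0.96 and -1.05), as were Hlf (-0.85 and -0.96) and Cd81 (-0.86 and -0.72). Sfrp5 (1.84 and 1.48), Snhg18 (1.19 and 1.55), Scn3a (1.19 and 1.33) and Cox6a2 (1.81 and 1.59) were higher in HFD in both.

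**Figure D5:**
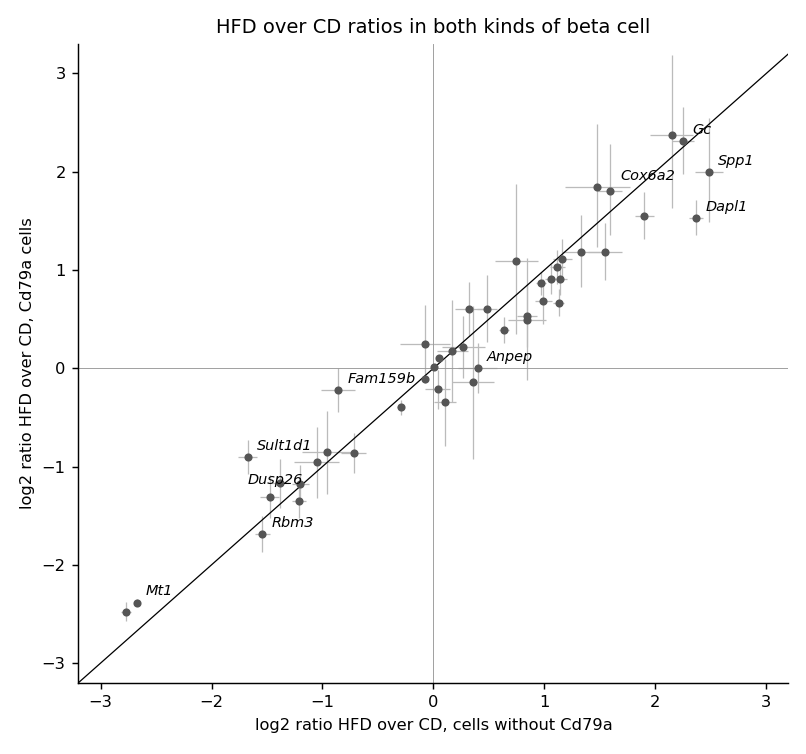
log2 ratio of HFD over CD in Cd79a cells (y axis) against the same ratio in β cells without Cd79a (x axis) for the 45 genes named here that were compared between diets, with exact 95% intervals of counting and the line of equal ratios. Mt1 lies at -2.38 and -2.67, Dapl1 at 1.53 and 2.37, and Sult1d1 at -0.90 and -1.67.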

How the data were processed

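Islet cells were profiled with the 10x Genomics 3' v3 kit in 1 HFD and 1 CD library. The deposited matrices hold raw UMI counts per gene and barcode for every possible barcode, with no normalization and no selection of cells by the authors. Per the submitters' processing notes, Cell Ranger 6.0.1 and mm10 were used, while the software version written in the file headers is 3.0.2. The gene annotation and the strand setting of the counting are not given in the sources used here, and 99.6% of 31053 gene IDs matched GENCODE M21, from which positions come. The sequences are RefSeq's (GRCm38.p6). Iapp, Nfix, Uchl1, Cox6a2, Scn3a, Cd81, Plk3, Slco1a6, Adgrb3, Meis1 and Gnai1 overlap annotated genes on the other strand. Rnase4 overlaps Ang on its own strand, and Anpep, Spp1, Snhg18, Snhg11, Adgrb3 and Meis1 overlap other annotated genes on theirs. Reads shared there cannot be told apart. Ins1 and Ins2, Slco1a6 and its relatives, and histone genes such as Hist3h2ba have close copies.

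Cells and groups followed the thresholds in the report. Each Cd79a cell was paired 1 to 1, without replacement, with the cell of 0 Cd79a UMIs nearest in total UMIs (within 5%). UMIs were summed per group, divided by total UMIs (CPM), and compared as a ratio with an exact conditional binomial 95% interval. Shares have Clopper-Pearson and single levels Poisson intervals. All cover counting error only, and the floor is 3 counts. No p-value was computed. Named were the 6 genes Cd79a, Ins1, Ins2, Iapp, Rnase4 and Anpep, the 12 genes at either end of the ranking by the interval bound nearest to 1 (ribosomal, mitochondrially encoded and unnamed genes left out), and 4 genes per list (the 2 with most UMIs and the 2 farthest from 1). The 12 counted genes outside the ranking, Ang, Aldh1a3, Mafa, Pdx1, Nkx6-1, Dapl1, Rbm3 and the further markers were named after their values were seen. Cells, genes and lists were chosen with earlier results of these data known.

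Doublets were kept in the main values and left out in an alternative, by scrublet scores (scanpy 1.11.5), which marked 1164 of 12062 HFD and 748 of 9667 CD barcodes at a rate set by the number of kept barcodes. Calculations used Python 3.11.15, numpy 2.4.6, scipy 1.17.1, R 4.3.3, edgeR 4.0.16 (TMM factors) and DESeq2 1.42.0 (size factors), and were checked on simulated sums. Alternatives changed the matching, scaling, minimum of 100 UMIs, fold, Cd79a limit and cell filters. Leaving out cells over 40000 UMIs and another random order of matching were added after seeing the data. Some genes that the naming rule selects are not reported here.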

Additional observations from a re-analysis of the deposited data

Results flagged for a closer look

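For 8 of the listed and ranked genes the ratio of Cd79a cells over cells without Cd79a had opposite signs in the 2 libraries, with both intervals off 0. The difference itself was not tested, and its cause was not tested. Gcg, the glucagon gene, had a log2 ratio of 1.03 in HFD (1049 CPM in Cd79a cells against 514 CPM) and -0.070 in CD. Ttr, which encodes transthyretin, had -0.076 in HFD and 0.051 in CD. Ppy, the pancreatic polypeptide gene, had -0.14 in HFD and 0.075 in CD. Hsp90b1, an endoplasmic reticulum chaperone, had -0.14 in HFD and 0.033 in CD. Kdr, an endothelial growth factor receptor, had 0.52 in HFD and -0.59 in CD. Chgb, the granule protein chromogranin B, had -0.089 in HFD and 0.075 in CD. The cold-inducible Rbm3 had -0.25 in HFD and 0.071 in CD, and Dapl1 -0.55 in HFD and 0.14 in CD. Among genes outside the lists, Apoe, which encodes a lipid carrier abundant in macrophages, had -1.09 in HFD and 1.14 in CD. Few cells held much of the Apoe UMIs. In HFD the 5 highest of 347 cells without Cd79a held 85.5% of their 365 UMIs. The highest HFD Cd79a cell held 118 of 172. In CD the 5 highest of 1474 Cd79a cells held 67.9% of 1030 UMIs, against 40.8% of 466 in the others. Apoe was seen in 13.5% of Cd79a cells against 15.9% of the others in HFD and in 17.7% against 16.9% in CD.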

How the results depend on the processing

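The count of 24 higher genes was 56 with cells thinned to 10000 UMIs, where all cells of 0 Cd79a UMIs were used without matching. It was 13 with TMM factors, 12 with the median of ratios and 14 with totals without Ins1 and Ins2. It was 73 with a minimum of 30 UMIs, 336 with none, 164 at a smaller fold limit and 13 with 5 or more Cd79a UMIs. The count of 8 lower genes was 13 when matched on UMIs other than insulin, 18 thinned, 19 with a minimum of 30 UMIs, 140 with none, 20 at the smaller fold limit and 5 with 5 or more Cd79a UMIs. A lower minimum adds genes with few UMIs and a lower fold adds smaller ratios by construction. For the other settings the cause was not tested, and the number of genes measured differed in some. It was 9228 when thinned and 3478 with 5 or more Cd79a UMIs, against 7171. The share of Cd79a cells was 1.89% (HFD) and 12.8% (CD) thinned to 10000 UMIs, 18.6% and 52.8% with 1 or more UMIs, and 27.0% in CD without cells over 40000 UMIs. Of 896 ratios of named genes under alternatives, 747 stayed within the counting interval, 147 moved and 2 changed sign. The sign changed for Iapp in HFD, at -0.021 with TMM factors and -0.017 with the median of ratios. Of 768 ratios of the 24 ranked genes 700 stayed within the interval and 0 changed sign. No paired analysis was possible because each diet has 1 library. Depth limits genes near 100 UMIs, whose HFD intervals span about 1 on the log2 scale, and mixed droplets, free RNA and the cells of 1 preparation cannot be separated from diet here.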
